A study of Mus musculus with 15 samples.

Results

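Histone genes fall into a replication-dependent set, arranged in gene clusters, and a smaller set of replacement variants encoded by single genes elsewhere in the genome. The table of normalised transcript levels held 65522 transcription units. A unit was taken as a histone unit where 1 of its listed symbols began with Hist1h to Hist4h, H2af, H3f3 or H1f and was not marked as a pseudogene by its name. This gave 109 units, of which 86 were Hist-cluster units and 23 were units of replacement variants. The name rule kept some pseudogenes, among them H3f3c and H2afy3, and H3f3aos, a transcript antisense to H3f3a.

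RNA was measured in mouse embryonic fibroblasts of the C57BL/6 background, all female, each primary population grown from 1 embryo of day 13 or 14 of gestation. WT cells (wild-type CIZ1 +/+) were compared with CIZ1 null cells (CIZ1 -/-), in which a gene trap downstream of exon 1 interrupts Ciz1 in every cell. CIZ1 is a nuclear matrix protein, and the study asked how its loss affects the epigenetic landscape of differentiated cells. Primary cells were collected before passage 5. Culture-adapted lines were populations grown past passage 20 from the same embryos, so each adapted line had a primary counterpart from its own embryo. The 3 WT embryos were named E14.4, E13.1, E13.8, and the 3 CIZ1 null embryos E14.2, E13.15, E13.17, with 1 primary sample and 1 adapted line from each. Where 3 values of a WT or CIZ1 null group are given below, they stand in this order of the embryos unless the embryos are named. Primary E13.17 carried a doxycycline-inducible CIZ1 transgene and was not treated, its adapted line carried the transgene too, and its labels give conflicting sample numbers, S06 and S13. A second untreated sample of the inducible genotype (S13) served, together with primary E13.17, for the comparison with 2 samples given doxycycline at 5 to 10 µg per ml (S14 and S15), and otherwise entered only an alternative with all 4 untreated primary CIZ1 null samples. The study names E13.17 and E14.19 as the 2 populations grown with and without doxycycline, but the labels do not say which of S14 and S15 came from which, so that comparison was not paired. The labels do not say what each adapted line went through in culture beyond its passage.

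Every library was made from poly(A)-selected RNA, and values are FPKM, fragments counted per length of transcript and per size of library, as normalised by the authors. Ciz1 stood at 18.7 to 25.0 FPKM in the 6 WT samples and at 0.0546 to 0.724 in the 7 untreated CIZ1 null samples, and at 296 and 191 in S14 and S15, so the labels hold for this gene. The 9 fibroblast markers examined were present in every group, but not all of them in every line. Thy1 was at 643 to 979 FPKM in primary WT cells, 0 in adapted WT E13.8 and 0.215 in adapted CIZ1 null E13.17. Summed levels of the 9 markers were 12627 to 13367 FPKM in primary WT and 2438 to 7591 in adapted WT cells. In CIZ1 null cells they were 11637 to 12470 in primary and 3412 to 5661 in adapted samples. Of the 9 markers, 8 were lower on adaptation of WT cells (median log2 change -1.33) and 7 on adaptation of CIZ1 null cells (-1.43). In WT cells 0 were called, beside 9.55% of all units. In CIZ1 null cells Col1a1, Col1a2 and Vim were called, beside 4.86% of all units, with adjusted p of 0.0262, 0.0341 and 0.0282 in limma. With the embryo as a block these were 0.0708, 0.0904 and 0.0899. The 4 macrophage markers summed to 1.79 to 4.19 FPKM in the adapted lines and 2.97 to 15.4 in the primary samples compared, and the 4 endothelial markers to at most 2.70 in any sample. Adapted lines of both genotypes were also lower in the 4 muscle markers (0 to 0.687 summed FPKM, against 6.14 to 13.6 in the 6 primary samples, nearly all of it Des, with Myod1 and Myf5 at 0), the 3 neural markers (0.0501 to 7.52 against 8.58 to 22.9) and the 4 epithelial markers (0 to 0.412 against 0.952 to 11.6). The part of these cell types in the adaptation results was not tested. Relative depth, read from the steps of low values, ran from 0.483 (S13) to 1.63 (primary WT E13.1) with primary WT E14.4 set to 1. It was 1 to 1.63 in the 6 primary samples compared and 0.54 (CIZ1 null E14.2) to 1.19 (WT E14.4) in the adapted lines. Adapted WT E13.1 stood at 0.62. The part of depth in the low values and in values of 0 was not tested. In primary CIZ1 null E14.2 the 10 highest units held 14.7% of all FPKM, against 5.71% to 8.16% in the other samples.

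Replication-dependent histone genes supply the canonical H1, H2A, H2B, H3 and H4 proteins while DNA is copied. Their mRNAs have no introns and normally no poly(A) tail. They end just after a conserved stem loop that is bound by the stem-loop binding protein SLBP, and cleavage needs the U7 particle with its proteins Lsm10 and Lsm11. Transcripts that run past the stem loop can be polyadenylated at a downstream signal, and some of these genes are known to give polyadenylated mRNA in cells that have left the cycle. Replacement variants such as H3.3 (H3f3a and H3f3b), H2A.Z (H2afz and H2afv), macroH2A (H2afy and H2afy2) and the linker histone H1.0 (H1f0) are made as ordinary polyadenylated mRNA throughout the cell cycle. A poly(A)-selected library therefore sees replacement variants directly. Of the replication-dependent genes it sees their polyadenylated form, and any tailless RNA carried through selection, which cannot be told apart from it here.

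The stem loops are shown because they set which mature transcripts poly(A) selection can capture. The letters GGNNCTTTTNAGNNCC were searched on the sense strand of annotated transcripts (GENCODE vM21, GRCm38), and the match is in capitals with up to 5 flanking bases on each side.
Hist1h1c: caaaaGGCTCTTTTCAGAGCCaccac
Hist3h2a: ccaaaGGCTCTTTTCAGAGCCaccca
Hist2h3c1: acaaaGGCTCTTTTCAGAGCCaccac
Hist1h2ab: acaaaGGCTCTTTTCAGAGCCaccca
Hist1h2ao: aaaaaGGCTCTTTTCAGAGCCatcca
Hist1h4i: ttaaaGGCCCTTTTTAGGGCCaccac
Hist1h4m: ctaaaGGCCCTTTTCAGGGCCatc
H2afx: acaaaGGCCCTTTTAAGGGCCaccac
The matched bases lie at chr13:23739512-23739527 on the plus strand for Hist1h1c, chr11:58955172-58955187 (plus) for Hist3h2a, chr3:96247327-96247342 (plus) for Hist2h3c1 and chr13:23751572-23751587 (plus) for Hist1h2ab. They lie at chr13:21810898-21810913 (plus) for Hist1h2ao, chr13:22040966-22040981 (minus) for Hist1h4i, chr13:21812129-21812144 (plus) for Hist1h4m and chr9:44335240-44335255 (plus) for H2afx.

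The letters were found in 44 of 69 Hist-cluster genes (63.8%), in 1 of 18 replacement variant genes (5.56%), and in 44 of 55254 other genes (0.0796%). The variant with a match was H2afx, which encodes the H2A.X protein phosphorylated at DNA breaks and is known to give mRNA of both kinds. The genes differed in how far their annotated transcript runs past the match. The annotated transcript went on for 3 bases in Hist1h4m, 11 in Hist1h2ab and 31 in Hist1h2ao, but for 330 in Hist1h4i, 822 in H2afx, 840 in Hist1h1c, 1162 in Hist2h3c1 and 1643 in Hist3h2a. Among the Hist-cluster genes with a match and an annotated coding transcript, 22 had at most 100 bases after it and 22 had more. A poly(A) signal (AATAAA or ATTAAA, searched on the sense strand within the last 60 bases) was found in 17 of 67 Hist-cluster genes and in 11 of 15 replacement variant genes. Some annotated transcripts stop at the coding sequence, so the absence of a match says only that the annotated bases lack these letters.

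Levels were set beside these annotated ends without a test. Among Hist-cluster genes whose unit listed no other symbol, the median of the mean FPKM over the 15 samples was 0.292 in 16 genes with more than 100 bases after the match, 0.272 in 15 genes with at most 100 bases, and 0.141 in 20 genes with no match. The highest unit of each of these sets stood at 37.4 (Hist1h1c), 5.77 (Hist1h4m) and 65.9 FPKM (Hist1h2bc). With genes of units that list several symbols included, the medians were 0.576 in 22, 1.01 in 22 and 0.251 in 23 genes. Hist1h2bc, the highest of all Hist-cluster units, had an annotated transcript of 1156 bases without the stem-loop letters.

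Promoters also set the groups apart. RefSeq windows from 250 bases before to 50 after the gene start (GRCm38.p6) were matched for 61 Hist-cluster and 14 replacement variant genes. The CCAAT box (letters CCAAT) was found on either strand in 85.2% of the Hist-cluster windows, 64.3% of the variant windows and 41.1% of the windows of all 27025 genes. The TATA box (TATAAA) was in 57.4%, 7.14% and 15.7% of them. The octamer ATTTGCAT, bound by Oct factors, was in 23%, 7.14% and 1.97%. None of these letter runs contains another. Within the Hist cluster the octamer was in 41.2% of 17 H2A windows and 43.8% of 16 H2B windows, and in 0 of the 6 H1, 10 H3 and 12 H4 windows. CCAAT was in every H1, H2A, H2B and H3 window but in 3 of 12 H4 windows. The octamer with its surroundings is shown for 3 genes of units described below, Hist1h2ab, Hist1h2aa and Hist3h2a, for Hist1h2bg as an H2B gene that shares its octamer with an H2A gene, and for H3f3b, the only variant gene that had it, on the gene's own strand with the octamer or its reverse complement in capitals.
Hist1h2ab: tgcaggcctttATGCAAATgaggagctcaa
Hist1h2aa: gtgctgggtgcATGCAAATaaggggaattc
Hist3h2a: gggtaaggcatATGCAAATtaggaaggctc
Hist1h2bg: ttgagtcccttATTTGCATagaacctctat
H3f3b: gtcgttggtgtATGCAAATcagggttctgt
These 30-base windows lie at chr13:23750948-23750977 (plus strand), chr13:23934302-23934331 (plus), chr11:58954555-58954584 (plus), chr13:23571330-23571359 (plus) and chr11:116024560-116024589 (minus). The same bases of chr13:23571330-23571359 are also the octamer of Hist1h2ae on the other strand, because Hist1h2bg and Hist1h2ae are divergent neighbours, and Hist1h2aa shares its octamer with Hist1h2ba in the same way.

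Over the 15 samples, Hist-cluster units were low and replacement variant units were high. The mean over samples was 1 FPKM or more in 20 of 86 Hist-cluster units and in 15 of 23 variant units, and the median of the means was 0.278 for the Hist-cluster units and 7.68 for the variant units. In 11 units, 6 of the Hist cluster and 5 of variants, every sample was listed at 0. Among the latter were units of H1fnt, H1foo and H2afb, known from germ cells. Of the 86 Hist-cluster units 85 shared their assembled locus with another unit and 12 listed several symbols, some of them genes that are no histones (Slc17a3, Slc17a4 and Trim17). Many Hist-cluster genes are near-identical copies, and the library kit did not mark the strand, so the split of reads between neighbouring or opposed units is uncertain.

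In the assembly of the study, on GRCm38, Hist1h2bc lay in a locus of 26 units at chr13:23684098-23934851 and Hist1h2ao at chr13:21716421-21811189, both much longer than the genes. The unit of Hist2h2aa2 and Hist2h3c2 lay at chr3:96237345-96248554. Among variants, H3f3a lay at chr1:180800831-180816859, H2afz at chr3:137864486-137866922, H2afj at chr6:136807639-136810074, H2afx at chr9:44334509-44344228 and H2afy2 at chr10:61715262-61784758. Levels were given for whole units, not for single exons or UTRs.

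A few units carried most of the signal. Hist1h2bc, which encodes an H2B, and the 2 units of Hist1h1c, which encodes the linker histone H1.2, held 59.4% of the summed mean of the Hist-cluster units. Both Hist1h1c units, at 37.4 and 29.8 FPKM, were listed at the same assembled locus and moved together. H3f3a, H2afz and H3f3b held 66.7% of that of the variants.

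In the primary WT samples the summed FPKM of all Hist-cluster units was 261, 269 and 262. In the adapted WT lines it was 122, 44.4 and 240. All adapted WT lines thus lay below all primary WT samples, by little in E13.8 and by much in E13.1. In primary CIZ1 null cells the sum was 329, 242 and 170, and in their adapted lines 253, 96.4 and 248. These groups overlapped, and E13.17 was the only embryo of the 6 in which the adapted line was the higher in this sum of all units. S13, S14 and S15 stood at 322, 300 and 206. The log2 ratio of the group means, adapted over primary, was -0.96 in WT and -0.31 in CIZ1 null cells. Spreads over the embryos were 1.25 and 0.94 (SD, n = 3), and no test was made on these sums. Without the highest unit of each class the sums were 105, 111 and 101 in primary and 57.5, 23.4 and 123 in adapted WT cells. These overlapped, E13.8 and E13.17 (76.2 to 105) rose, and the other embryos fell. With all units, the H2A, H3 and H4 sums of E13.8 rose from 13.1, 3.31 and 20.4 to 19.8, 6.79 and 44.2. Its H1 and H2B sums fell from 81.1 and 116 to 77.1 and 79.8, and its units listing both H2A and H3 from 25.7 to 9.82.

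The summed level of replacement variants moved less. It was 1056, 1039 and 1044 in the primary WT samples, and 1159, 1341 and 1337 in their adapted lines. All 3 adapted WT lines lay above all 3 primary samples, with a log2 ratio of means of 0.29 and a spread of 0.13 (SD, n = 3). Without the highest unit of each class, which for H3 is H3f3a, this ratio was -0.0447. In CIZ1 null cells the sum was 1003, 1162 and 1183 before adaptation and 927, 994 and 1164 after it, a log2 ratio of -0.12 with a spread of 0.10. As a share of all histone signal, Hist-cluster units made up 19.8% to 20.6% in primary WT samples, 3.21% to 15.2% in adapted WT lines, 12.5% to 24.7% in primary CIZ1 null samples and 8.84% to 21.5% in adapted CIZ1 null lines.

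**Figure D1:**
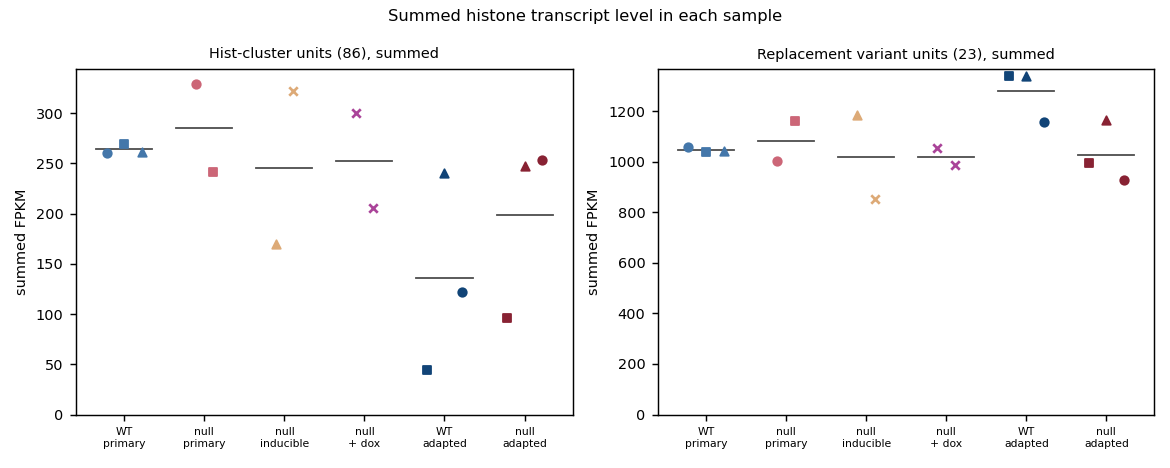
Summed FPKM of the 86 Hist-cluster units (left) and the 23 replacement variant units (right) in each of the 15 samples, by labelled group. Horizontal lines are group means, circles, squares and triangles mark embryos within a genotype, and crosses mark S13, S14 and S15, with the untreated primary E13.17 in the inducible group. Adapted WT lines run from 44.4 to 240 on the left and lie above the primary WT samples on the right.

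Culture adaptation of WT cells changed 5 of the 37 histone units tested. The histone units were compared in the same fit as all other units. limma was run on log2(FPKM + 1) of the 19919 units that averaged 1 FPKM or more, with Benjamini-Hochberg adjustment over all of them and a threshold of 0.05. Changes on this scale understate those of low units. Of all units tested 9.55% were called, 2.87% as higher and 6.68% as lower, and of the 37 histone units 2 were called as higher and 3 as lower, a share of the same order. With quantile normalization, which moved the median log2 change of all units from -0.05 to 0.06, 982 of 2063 calls were higher, against 572 of 1902 without it. Values of the groups did not overlap in 18 of 37 histone units, 8 higher and 10 lower, against 38.7% of all units, 17.3% higher and 21.4% lower. The median log2 change was -0.65 over 21 Hist-cluster units and 0.41 over 16 variant units, beside -0.05 over all units.

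Hist1h2ao, which encodes a replication-dependent H2A on chromosome 13, rose on adaptation of WT cells. Its level was 2.75, 2.67 and 2.42 FPKM in the primary cells and 5.92, 6.53 and 8.92 in their adapted lines. All 3 adapted lines lay above all 3 primary samples. The log2 change was 1.15 ± 0.20 (SE), with adjusted p = 0.0244 in limma. In CIZ1 null cells the level was 3.87, 1.16 and 3.34 in the primary samples and 0, 5.84 and 1.12 in the adapted lines. All 3 adapted CIZ1 null lines lay below the lowest adapted WT line, E13.15 only just. Hist1h2ap, which encodes a near-identical H2A, stood at 1.09, 2.3 and 1.6 in primary WT samples and at 1.87, 3.49 and 4.42 in their adapted lines. It was listed at 0 in adapted CIZ1 null E14.2 and E13.17 and at 2.53 in adapted E13.15.

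Another pair of Hist-cluster units fell. The unit that lists Hist1h2aa, Hist1h2ab, Hist1h3b and the phosphate transporter gene Slc17a3 stood at 5.03, 5.66 and 4.07 FPKM in primary WT samples, and at 0.204, 0 and 1.61 in their adapted lines. The groups did not overlap. Its log2 change was -2.01 ± 0.38 (SE), with adjusted p = 0.0310 in limma. The unit of Hist2h2aa2 and Hist2h3c2, which encode an H2A and an H3 on chromosome 3, stood at 7.87, 11.3 and 14.2 and then at 3.35, 1.61 and 4.07. Its log2 change was -1.61 ± 0.32, with adjusted p = 0.0340 in limma, and its groups did not overlap either. Its mirror copy, the unit of Hist2h2aa1 and Hist2h3c1, stood at 6.55 to 7.12 in primary and at 2.24, 0.499 and 3.49 in adapted WT cells, without overlap, and had a log2 change of -1.49 ± 0.40 and an adjusted p of 0.0638 in limma.

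The most abundant Hist-cluster units were lower in every adapted WT line but varied too widely among these lines to be called. Hist1h2bc gave 85.1, 80.0 and 85.8 FPKM in the primary samples and 38.7, 4.46 and 53.6 in their adapted lines, with a log2 change of -1.89 ± 0.82 (SE) and an adjusted p of 0.178 in limma. The higher Hist1h1c unit was at 49.2, 49.3 and 44.6 and then at 15.1, 4.34 and 41.3, with a log2 change of -1.66 ± 0.69 and an adjusted p of 0.163. Adapted E13.1 was the lowest of the 15 samples for both, and for the unit of Hist1h2ba and Slc17a4, at 0.924 against 18.0 to 19.8 in primary WT cells. Hist3h2a, which shares its unit with Trim17, was at 6.47 to 7.62 in primary and 3.03 to 4.30 in adapted WT cells, again without overlap, with a log2 change of -0.73 ± 0.18 and an adjusted p of 0.0570.

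**Figure D2:**
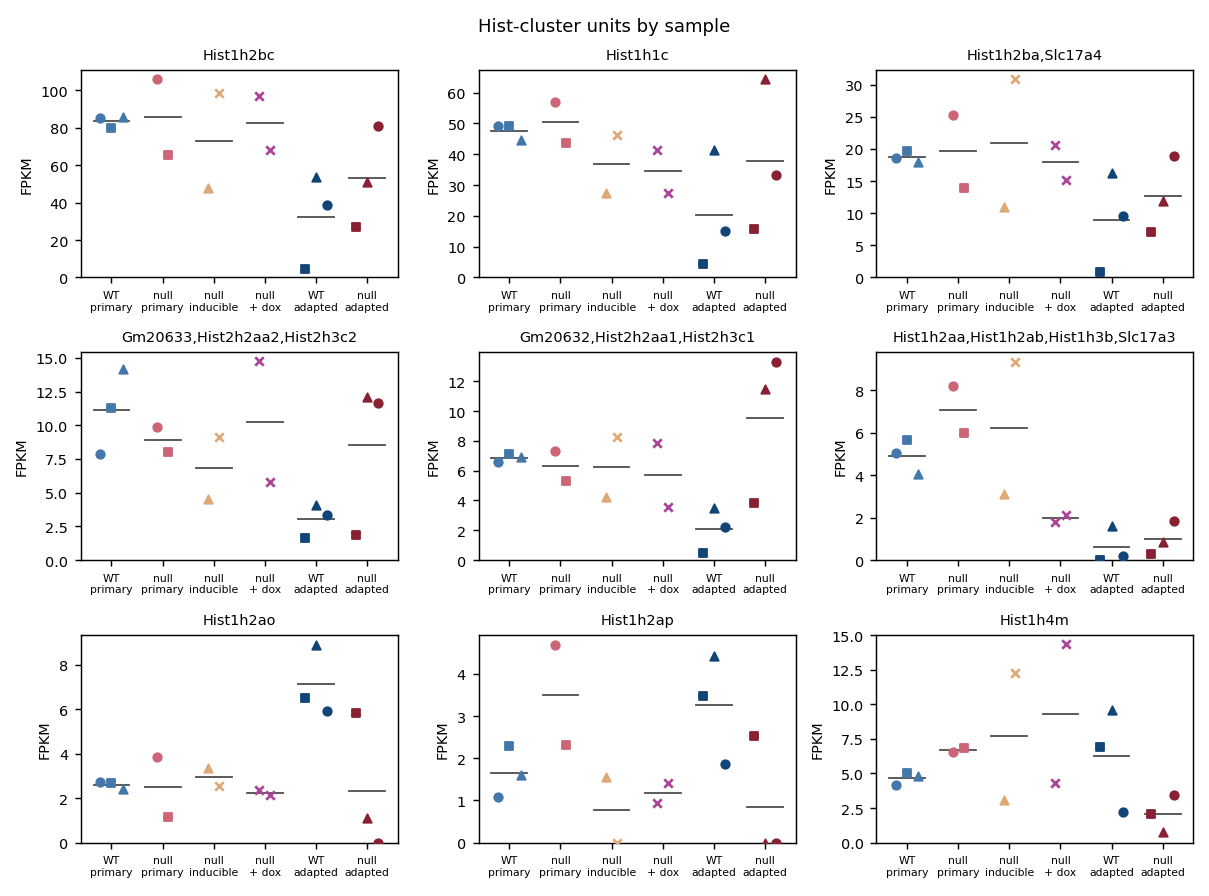
FPKM of 9 Hist-cluster units in each of the 15 samples, each panel with its own axis from 0, with groups, lines and markers as in the plot of summed levels and the genes of the unit as title. Hist1h2ao is above 5 in all adapted WT lines, the Hist1h2ab unit is below 2 in all adapted lines, and Hist1h2bc and Hist1h1c spread widely in the adapted lines.

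Among replacement variants, H2afj fell and H2afy2 rose on adaptation of WT cells. H2afj encodes H2A.J, a variant known to accumulate in senescent fibroblasts. It was at 94.5, 128 and 120 FPKM in the primary cells and at 47.3, 48.3 and 24.5 in their adapted lines. The groups did not overlap, and the log2 change was -1.54 ± 0.30 (SE), with adjusted p = 0.0314 in limma. H2afy2, which encodes macroH2A2, a variant with a large extra domain found on silent chromatin, was at 12.9, 13 and 13.6 and then at 21.1, 34.1 and 26.2. Its log2 change was 0.96 ± 0.21, with adjusted p = 0.0401, and its groups did not overlap. H2afy, which encodes macroH2A1, had the opposite sign. It went from 64.8 to 70.0 in primary to 37.7 to 52.7 in adapted WT cells, a log2 change of -0.55 ± 0.18 with an adjusted p of 0.0934.

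Of the H3.3 genes, H3f3a was near the threshold and H3f3b was not. H3f3a reached 239, 237 and 222 FPKM in primary cells and 320, 476 and 406 in their adapted lines. The groups did not overlap, but the adjusted p was 0.0501, with a log2 change of 0.76 ± 0.18 (SE). The larger unit of H3f3b, the other gene for the same protein, gave 252, 189 and 198 and then 245, 212 and 202, which overlapped. The H2A.Z genes did not pass either. H2afz was at 223 to 258 in primary and at 218 to 388 in adapted WT cells. H2afv was at 12.9 to 21.7 and at 27.1 to 66.8, with an adjusted p of 0.0823. H1f0 was at 34.2 to 42.1 in primary and 50.3 to 89.7 in adapted WT cells in its higher unit, without overlap and with an adjusted p of 0.144. H1fx, which encodes H1.10, was at 7.41 to 10.4 and at 6.89 to 12.7, and H2afx was at 38.3 to 45.5 and at 26.1 to 44.1. The unit named here as H1fx also lists AC153872.1 and shares its locus with other units.

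Each adapted line shares its embryo with a primary sample, and with the embryo as a block 0 histone units were called in WT cells. The adjusted p was then 0.0640 for H2afj, 0.0776 for H2afy2, 0.0645 for Hist1h2ao, 0.0685 for the Hist1h2ab unit and 0.0587 for the Hist2h2aa2 unit. No histone unit was called either when any single primary WT sample was left out. With quantile normalization H2afj missed the threshold, with an adjusted p of 0.0544, and H3f3a and the lower H2afv unit passed, with adjusted p of 0.0343 and 0.0390 in limma.

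Culture adaptation of CIZ1 null cells changed 1 of 37 histone units, H2afj. It was at 108, 128 and 167 FPKM in the primary cells and at 28.5, 42.1 and 39.6 in their adapted lines, so the groups did not overlap. The log2 change was -1.84 ± 0.24 (SE), with adjusted p = 0.0235 in limma. Of 20044 units tested 4.86% were called, 1.4% as higher and 3.47% as lower. With quantile normalization 351 of 852 calls were higher, against 280 of 975 without it. Values did not overlap in 10 of 37 histone units, 4 higher and 6 lower, and in 37.1% of all units, 17.5% higher and 19.6% lower. The median log2 change was -0.47 over 21 Hist-cluster units and 0.23 over 16 variant units, beside -0.04 over all. With the embryo as a block H2afj had an adjusted p of 0.0708, and 0 histone units were called. Leaving out any 1 primary sample, or the adapted line of E14.2, also left 0 calls, and without adapted E13.15 there were 5, H2afj, H2afx, H3f3a, Hist1h2ap and the Hist2h2aa1 unit. Without adapted E13.17 there were 2, H2afj and H1fx.

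Of the 5 units called in WT cells, H2afj was also called in CIZ1 null cells, the Hist1h2ab unit and H2afy2 had the same sign without passing the test, and Hist1h2ao and the Hist2h2aa2 unit overlapped between primary and adapted cells. The Hist1h2ab unit was at 8.22, 5.97 and 3.1 before and at 1.85, 0.283 and 0.838 after adaptation, without overlap, with a log2 change of -1.76 ± 0.41 (SE) and an adjusted p of 0.0589. H2afy2 was at 15.5, 15.4 and 19.9 and then at 28.1, 25.9 and 30.9, also without overlap, with a log2 change of 0.71 ± 0.18 and an adjusted p of 0.0694. The Hist2h2aa2 unit was at 9.85, 8.01 and 4.56 and then at 11.7, 1.87 and 12.1, which overlapped, with a log2 change of -0.07 ± 0.63 and an adjusted p of 0.952. Hist1h2ao, whose levels are given above, had the opposite sign to WT cells, with a log2 change of -0.55 ± 0.72 and an adjusted p of 0.636. The differences of these log2 changes between genotypes, 1.55 for the Hist2h2aa2 unit and -1.70 for Hist1h2ao, had adjusted p of 0.996. H3f3a, not called in either genotype, was at 222, 223 and 254 and then at 388, 306 and 361, again without overlap, with a log2 change of 0.59 ± 0.17 and an adjusted p of 0.0903. Of the 34 histone units tested in both genotypes 26 had the same sign (76.5%), against 77.8% of all 19153 units tested in both. These fits share no sample, but the 34 units are not independent of each other.

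Other values in CIZ1 null cells split along the adapted lines. H2afx gave 45.9, 59.0 and 47.8 FPKM in primary samples and 11.9, 37.4 and 8.82 in their adapted lines, so that E13.15 stood apart from the other two lines. Its log2 change was -1.60 ± 0.50 (SE), with an adjusted p of 0.101 in limma. H1fx was at 7.96, 8.73 and 14.1 and then at 1.91, 1.86 and 6.32, with a log2 change of -1.48 ± 0.42 and an adjusted p of 0.0865. H2afz was at 191, 308 and 279 and then at 123, 208 and 183, which overlapped. The Hist2h2aa1 unit was at 7.32, 5.30 and 4.22 and then at 13.3, 3.83 and 11.5, higher in 2 lines and lower in E13.15. Hist1h4i, an H4 gene, was in its lower unit at 4.18 to 5.34 in primary and 1.10 to 3.40 in adapted CIZ1 null cells, with an adjusted p of 0.134. Hist1h4m, also an H4 gene, was at 3.11 to 6.88 and 0.769 to 3.45.

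**Figure D3:**
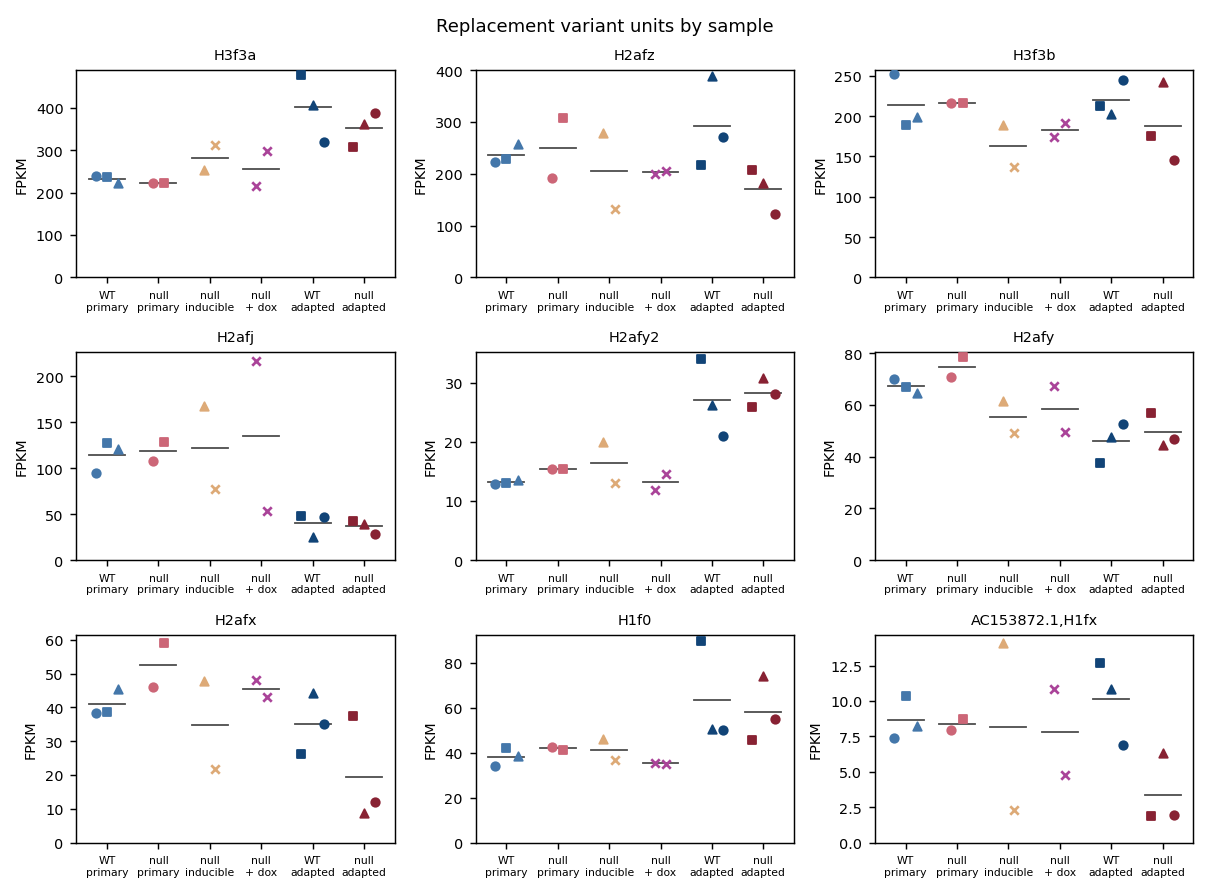
FPKM of 9 replacement variant units in each of the 15 samples, each panel with its own axis from 0, with groups, lines and markers as in the plot of summed levels. H2afj is below 50 in all 6 adapted lines, H3f3a and H2afy2 are higher in the adapted lines than in the 3 primary samples compared with them in each genotype, and H2afx is lowest in 2 adapted CIZ1 null lines, at 8.82 and 11.9.

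**Figure D4:**
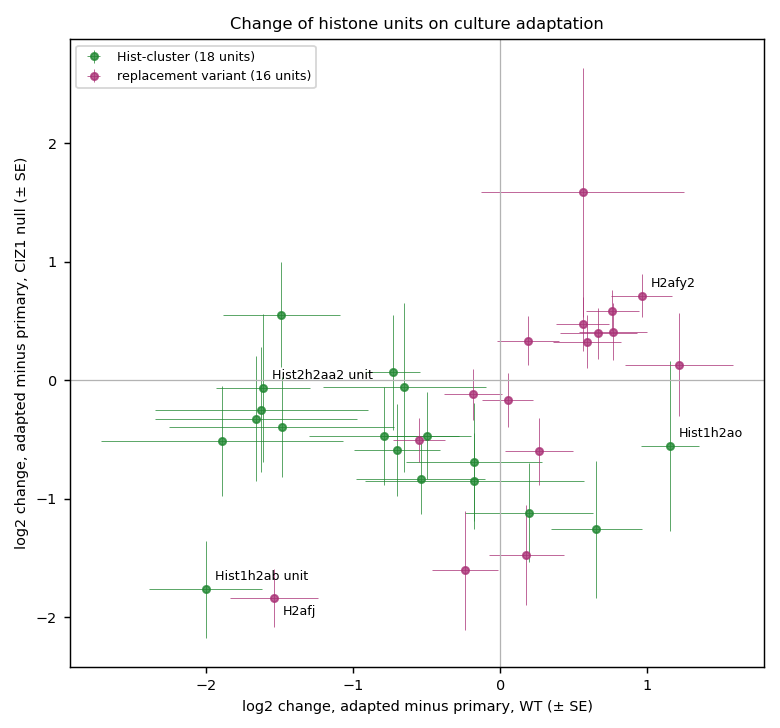
Log2 change of FPKM + 1 (adapted minus primary) in WT cells against that in CIZ1 null cells for the 34 histone units tested in both, with standard errors from limma as bars. Named points were called in at least 1 genotype, and H2afj and the Hist1h2ab unit lie at the lower left while H2afy2 lies at the upper right.

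On loss of CIZ1, limma called 0 of 39 histone units in primary cells and 0 of 35 in adapted cells. Of all units tested 0.00511% and 0.00501% were called, in each case Ciz1 alone, with log2 changes of -4.20 ± 0.15 and -4.01 ± 0.26 (SE). With another test, Cuffdiff, the study itself listed many more CIZ1-dependent units in these populations, more in primary than in adapted cells. In simulated data, a log2 change of 1 was called in 110 of 200 units by the primary fit and in 0 by the adapted fit. A log2 change of 2 was called in 178 and 103 of 200, so changes of these sizes could have gone uncalled. The adjusted p of Ciz1 in adapted cells was 0.0448 and reached 0.274 under the alternatives run. In primary cells 1 of 39 histone units had an unadjusted p under 0.05, against 6.26% of all units. This was H2afy2, at 12.9 to 13.6 FPKM in WT and 15.4 to 19.9 in CIZ1 null cells, with a log2 change of 0.33 ± 0.14 and an adjusted p of 0.791. H2afx was at 38.3 to 45.5 in WT and 45.9 to 59.0 in CIZ1 null cells, with a log2 change of 0.31 ± 0.14, and the Hist2h2aa2 unit at 7.87 to 14.2 and 4.56 to 9.85, with a log2 change of -0.54 ± 0.30. Groups did not overlap in 3 of 39 histone units, all higher in CIZ1 null cells, against 11.9% of all units, 6.13% higher and 5.72% lower. The median log2 change was 0.00 over 24 Hist-cluster units and 0.13 over 15 variant units, and over all units it was 0.00 as well.

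In adapted cells 4 of 35 histone units had an unadjusted p under 0.05, against 4.02% of all units, and groups did not overlap in 4, 1 higher and 3 lower, against 8.28% of all units, 4.55% higher and 3.74% lower. The median log2 change was 0.56 over 19 Hist-cluster units and -0.10 over 16 variant units, beside 0.03 over all units. H1fx was at 6.89 to 12.7 FPKM in WT and 1.86 to 6.32 in CIZ1 null lines, with a log2 change of -1.46 ± 0.44 (SE) and an adjusted p of 0.998. The Hist2h2aa1 unit was at 0.499 to 3.49 in WT and 3.83 to 13.3 in CIZ1 null lines, with a log2 change of 1.77 ± 0.56. Hist1h2ao was at 5.92 to 8.92 and 0 to 5.84, with a log2 change of -1.72 ± 0.67, and Hist1h2ap at 1.87 to 4.42 and 0 to 2.53, with a log2 change of -1.43 ± 0.57. H2afz was at 218 to 388 and 123 to 208, without overlap. In the test of whether the effect of CIZ1 loss differed between adapted and primary cells, 0 of 36 histone units passed and 0% of 20046 units were called by limma. In that test 5 histone units had an unadjusted p under 0.05 (4.63% of all units did). They were the Hist2h2aa1 unit, with a difference of log2 changes of 2.04, H1fx (-1.65), Hist1h2ap (-1.91), H2afx (-1.37) and H2afz (-0.87), each with an adjusted p of 0.996. Without adapted CIZ1 null E13.15, H2afx passed with an adjusted p of 0.0208.

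Doxycycline raised Ciz1 itself by 7.49 ± 0.35 (SE) on the log2 scale and changed 0 of 37 histone units by limma, of which 0 had an unadjusted p under 0.05. Of all units 0.0101% were called, and 1.76% had an unadjusted p under 0.05. Groups did not overlap in 6 of 37 histone units, against 19.7% of all units. With 2 samples in each arm, a simulated log2 change of 2 was called in 0 of 200 units, so changes of that size would not have been seen. The smallest p was that of the Hist1h2ab unit, at 3.1 and 9.33 FPKM in untreated E13.17 and S13 and at 1.8 and 2.12 in S14 and S15, with a log2 change of -1.14 ± 0.49. Hist1h4i was at 6.53 and 4.54 untreated and 9.35 and 7.18 with doxycycline in its higher unit. The unit of Hist1h2bf, Hist1h2bh and Hist1h3e was at 1.05 and 2.29 untreated and 4.91 and 2.03 treated. H2afj was at 167 and 77.3 untreated and 216 and 53.5 treated, and the H2afv unit at 41.0 and 14.1 untreated and 22.5 and 29.3 treated, wider apart within each arm than between them.

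The other units named for their class or mean level were not called in any comparison. The second H3f3b unit stood at 10.2 to 29.1 FPKM over the 15 samples, and in WT cells was higher in all adapted lines (22 to 27.9) than in primary samples (14.1 to 18.1), with an adjusted p of 0.0950 in limma. The minor H2afy units stood at 2.57 to 5.01 and at 0.844 to 1.77, and the second H1f0 unit at 33.5 to 78.2. In WT cells the latter was at 35.6 to 39.3 in primary samples and 48.0 to 78.2 in adapted lines, without overlap, with a log2 change of 0.59 ± 0.23 (SE) and an adjusted p of 0.140 in limma. The H3f3c pseudogene unit was at 0 to 32.9, with its highest value in adapted CIZ1 null E13.17. Hist1h2bg, an H2B gene, stood at 0.739 to 4.50, and Hist1h3c, the highest H3 unit without an H2A or H2B gene, at 0.169 to 2.26. Hist1h3i was at 0 to 2.12 and Hist1h3g at 0 to 3.47. Hist1h1d, the next H1 gene after Hist1h1c, was at 0.0543 to 2.14.

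The genes that make histone mRNA, carry histones and mark replication were read from lists, beside the histone units. On adaptation of WT cells 5 of 14 tested units of histone pre-mRNA processing were called, 1 higher and 4 lower, beside 9.55% of all units. Slbp rose from 23.7, 27.2 and 24.4 FPKM to 43.3, 44.2 and 36.7, a log2 change of 0.70 ± 0.16 (SE) with adjusted p = 0.0451 in limma. Lsm11, a part of the U7 particle, fell from 8.39, 8.09 and 7.89 to 1.18, 2.85 and 1.09, with a log2 change of -1.81 ± 0.27 and adjusted p = 0.0187. Its partner Lsm10 fell with a log2 change of -1.04 ± 0.25 and Ncbp2, of the cap-binding complex, with a log2 change of -0.63 ± 0.15. The unit of Sympk, a scaffold of the cleavage complex, which also lists Rsph6a and Snrpd2, fell in both genotypes, with log2 changes of -0.72 ± 0.14 in WT and -0.89 ± 0.18 in CIZ1 null cells. It was the only 1 of the 14 called in the latter. With the embryo as a block Lsm11 was still called, with adjusted p = 0.0495 in limma. The adjusted p was then 0.0953 for Slbp, 0.0682 for Lsm10, 0.113 for Ncbp2, and 0.0848 in WT and 0.105 in CIZ1 null cells for the Sympk unit.

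Of 24 units of histone chaperones and their partners, 2 were called on adaptation of WT cells and 0 in CIZ1 null cells. Beside this and the next lists, 9.55% of all units were called in WT and 4.86% in CIZ1 null cells. Asf1a, a chaperone of newly made H3 and H4, rose with a log2 change of 0.89 ± 0.20 (SE) and Dek with 0.96 ± 0.21. Of 18 S-phase units 2 were called in WT cells, Slbp again and Pcna, the sliding clamp of DNA polymerase, with a log2 change of 0.92 ± 0.22. Of 8 proliferation units Cdk1 and Bub1 were called in WT cells, with log2 changes of 1.26 ± 0.19 and 1.34 ± 0.24. With the embryo as a block the adjusted p was 0.0489 for Cdk1, and 0.0751 for Asf1a, 0.0675 for Dek, 0.0981 for Pcna and 0.0595 for Bub1, which were no longer called. For CIZ1 loss in either state limma called 0 units of these lists.

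Levels of these genes in the adapted CIZ1 null lines differed widely between lines. Cenpa, the centromeric H3 variant, which the name rule does not include, was at 56.2, 36.8 and 56.7 FPKM in primary E13.15, E14.2 and E13.17 and at 36.0, 6.78 and 0.482 in their adapted lines, against 63.5 to 99.1 in adapted WT lines. Mki67, a marker of cycling cells, was at 12.2 to 17.1 in these primary samples and at 22.3 in E13.15, 2.02 in E14.2 and 0.340 in E13.17 of the adapted lines. Slbp was at 45.8, 18.9 and 13 in the adapted lines. In the same order the summed Hist-cluster level was 96.4, 253 and 248 and that of H2afx 37.4, 11.9 and 8.82. Thus the 2 adapted CIZ1 null lines with the lower proliferation markers had the higher Hist-cluster sums and the lower H2afx. In adapted WT lines Mki67 was at 37.1, 25.0 and 11.3 in E13.1, E13.8 and E14.4, and the Hist-cluster sums at 44.4, 240 and 122. In bulk samples fewer cycling cells and less RNA per cell cannot be told apart, and the part of either in the histone levels was not tested.

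**Figure D5:**
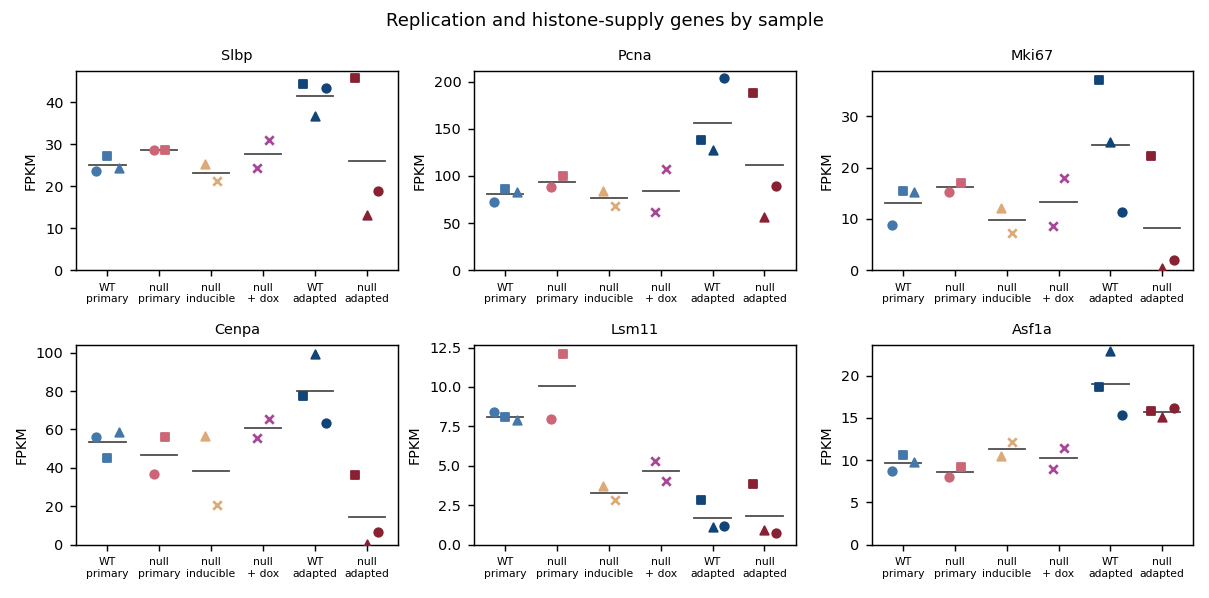
FPKM of Slbp, Pcna, Mki67, Cenpa, Lsm11 and Asf1a in each of the 15 samples, each panel with its own axis from 0, with groups, lines and markers as in the plot of summed levels. Slbp and Pcna are above their primary WT range in all adapted WT lines, and Mki67 and Cenpa are lowest in adapted CIZ1 null E13.17 and E14.2.

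RNAs that have no poly(A) tail were read as a measure of what passed the selection. The summed FPKM of 9 such units, among them Rmrp, Rn7sk and Snora73b, was 18.4 to 29.0 in primary WT, 7.55 to 61.1 in adapted WT, 16.3 to 44.2 in primary CIZ1 null and 11.3 to 85.0 in adapted CIZ1 null samples. It was lowest, within the adapted WT lines, in E13.1 (7.55), and then stood at 29.6 in E14.4 and 61.1 in E13.8. The order of the Hist-cluster sums in these 3 lines was the same. Snora73b, a small nucleolar RNA, was listed at 0 in all of them and at 6.64 to 11.6 in primary WT samples, with adjusted p = 0.00434 in limma. The summed level of the 9 units in the adapted CIZ1 null lines was 42.4 in E13.15, 85.0 in E13.17 and 11.3 in E14.2, an order different from that of the Hist-cluster sums, and its part in the result was not tested.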

How the data were processed

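The authors trimmed paired reads from poly(A)-selected libraries (NEBNext Ultra, inserts of 250 to 400 bp) with Cutadapt 1.8.3, aligned them to GRCm38 with HISAT2 2.0.5, assembled transcripts with Cufflinks and deposited normalised FPKM from Cuffnorm for 65522 units, without raw counts. Their table of Cuffdiff 2.2.1 comparisons (group means, fold changes, p) was not used. Assembly can join neighbouring histone genes into 1 unit, and FPKM of transcripts near the insert length depends on the length correction.

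Groups came from the labels. The embryo of 12 samples came from per-line values of the study, which were identical to those deposited (829 to 1022 values per sample). The label of primary CIZ1 null E13.17 has conflicting sample numbers, S06 and S13. Units averaging 1 FPKM or more over the samples compared were tested with limma 3.58.1 in R 4.3.3 (trend) on log2(FPKM + 1), unpaired, with Benjamini-Hochberg adjustment over all units. Tested on simulated data, the WT adaptation fit called 0, 129 and 181 of 200 units changed by log2 1, 2 and 3, and the doxycycline fit 0, 0 and 95. Only these 200 units, with a mean log2(FPKM + 1) above 3, were changed in each simulation. The adjustment is less strict where more units change, as in the WT adaptation fit with its 1902 calls, so the rates do not carry over to that fit. Most Hist-cluster units lie below that level. The doxycycline comparison used 2 populations that the study names as E13.17 and E14.19, unpaired because the labels do not tie S13 to S15 to them.

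Members and lists were chosen with earlier results of these data known. Named were every variant unit with a mean of at least 1, the 3 highest Hist-cluster units per class, every unit called, the 3 of smallest p in each comparison, the leading called genes of the lists and Slbp, Cenpa, Mki67 and Ciz1. Units named outside this rule were chosen after their values were seen.

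Primary and adapted samples of 1 embryo are paired by origin. Deviations from group means correlated at -0.01 to 0.211 for the 3 WT embryos and -0.021 to 0.111 for the 3 CIZ1 null embryos. Between primary and adapted samples of different embryos they correlated at -0.187 to 0.0802 in WT and -0.174 to 0.106 in CIZ1 null cells. Alternatives were another pseudocount, other filters, quantile normalization, an embryo block, a single fit of 4 groups, other sets of primary null samples and each sample left out. pandas 2.3.3, NumPy 2.4.6 and Matplotlib 3.10.9 under Python 3.11.15 served for tables and plots.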

Additional observations from a re-analysis of the deposited data

How the results depend on the processing

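Of 37 histone units 5 were called on adaptation of WT cells. The count was 1 without a filter on FPKM, and 4 to 6 with a pseudocount of 0.1, a minimum mean of 5, quantile normalization or 4 groups in a single fit. It was 0 with the embryo as a replicate block, and 0 to 8 when samples were left out (0 without any single primary WT sample, 8 without adapted E14.4). On adaptation of CIZ1 null cells the count of 1 became 0 with the embryo as a replicate block or with only the 2 primary samples without transgene, 6 with 4 groups in a single fit, and 0 to 5 with samples left out. Leaving out adapted E13.15 gave 1 call in the interaction, where the other left-out samples gave 0. Counts for CIZ1 loss in either state and for doxycycline stayed at 0 under the alternatives run. The log2 ratio of summed variant levels, adapted over primary, turned from 0.29 to -0.0447 in WT and went from -0.12 to -0.38 in CIZ1 null cells without the highest unit of each class. Counting each gene once, by its highest unit, an alternative chosen after seeing the data, gave 0.27 and -0.16, and -0.96 and -0.33 for the Hist-cluster sums. Causes were not tested. Among all units, WT adaptation gave 1902 calls, 988 without a filter, 499 with the block, 2707 in a single fit and 62 to 2972 with samples left out. CIZ1 null adaptation gave 975 calls, 322 without a filter, 10 with the block, 2969 in a single fit, 449 with all 4 untreated primary samples, 30 with only those without transgene and 25 to 2999 with samples left out. The adjusted p of Ciz1 after doxycycline reached 0.0861. Among the alternatives for single units with an unadjusted p under 0.05, 397 values kept their side of the threshold, 19 gained a call, 35 lost one and 0 reversed. Most of these units were not called in the main fit, and only a called unit can lose its call. The 5 units called on adaptation of WT cells each kept the call in 5 or 6 of 11 or 12 alternatives. H2afj in CIZ1 null cells kept it in 8 of 14. Groups of 3 or fewer and the unknown counting error of low units limit what could be called.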
